A study of Mus musculus with 6 samples.

Results

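Stearoyl-CoA desaturases and the fatty acid desaturases of the polyunsaturated series put double bonds into fatty acyl chains, and 5 of their genes, Scd1, Scd2, Fads1, Fads2 and Fads3, are described here out of 22851 genes in the deposited expression matrix. They were chosen by gene symbol as a family, from earlier results on these same libraries in which their levels differed between the groups. The fold changes of these genes are therefore a description and carry no p-value. The libraries came from livers of male mice of the inbred strain C57BL/6J, all of them fed a high-fat diet (HFD). The control group received vehicle, and the other group received ONX-0914 at 10 mg/kg by subcutaneous injection every other day for 6 weeks. ONX-0914 inhibits PSMB8, a catalytic subunit of the immunoproteasome, the form of the proteasome found mainly in immune and inflamed cells. The control libraries are vehicle 1, 2 and 4 and the treated libraries are ONX-0914 1, 3 and 4. The design text speaks of 2 biological replicates per group. The age of the mice and the origin of the libraries in separate animals are not given in the sources used here, so the spread between libraries may be technical. Because all mice received the high-fat diet, the comparison says nothing of the diet itself.

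SCD1, the main hepatic stearoyl-CoA desaturase, turns palmitoyl-CoA and stearoyl-CoA into palmitoleoyl-CoA and oleoyl-CoA, the monounsaturated chains that go into triglycerides, phospholipids and cholesterol esters. SCD2 catalyses the same reaction and is best known from brain, skin and the developing liver. FADS2 and FADS1 act in turn, with an elongation step between them, to convert the essential fatty acids linoleate and alpha-linolenate into arachidonate, eicosapentaenoate and the precursors of docosahexaenoate. FADS3 is a relative that has been linked to sphingoid base desaturation. The enzymes sit in the endoplasmic reticulum and draw electrons through cytochrome b5 and its reductase, and the SREBP-1 transcription factor and the nuclear receptors LXR and PPAR-alpha are textbook regulators of Scd1, Fads1 and Fads2.

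All 5 genes lie on chromosome 19 of GRCm38, in 2 groups that are 34.01 Mb apart. Scd2 (chr19:44293674-44306864, plus strand) and Scd1 (chr19:44394455-44407879, minus strand) stand in a cluster with Scd3 and Scd4 that spans 204.6 kb. Fads3 (chr19:10041569-10060110, plus strand), Fads2 (chr19:10062765-10101746, minus strand) and Fads1 (chr19:10182888-10196877, plus strand) fill a cluster of 155.3 kb, in which the 3′ ends of Fads3 and Fads2 are 2.655 kb apart. The RefSeq promoter table (GRCm38.p6) held entries for 2 of the 5, the convergent neighbours Fads2 and Fads3. Their windows run from 250 bases before to 50 bases after the RefSeq transcript start. They are shown because Fads2 and Fads3 are adjacent and had unlike values in the treated livers. For Fads2 this start differs from that of the gene span given above, which begins at 10101746 on the minus strand. Almost all of the Fads2 window, up to 10101753, thus lies inside that span and not before it. Capitals mark the matches to the motifs described next.
Fads2, chr19:10101454-10101753, minus strand: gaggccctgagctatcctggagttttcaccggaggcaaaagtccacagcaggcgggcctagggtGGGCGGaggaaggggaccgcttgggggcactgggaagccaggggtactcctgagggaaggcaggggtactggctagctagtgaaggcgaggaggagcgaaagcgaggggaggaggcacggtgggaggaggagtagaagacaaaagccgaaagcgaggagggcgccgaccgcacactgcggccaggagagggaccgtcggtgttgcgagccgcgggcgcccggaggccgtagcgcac
Fads3, chr19:10041298-10041597, plus strand: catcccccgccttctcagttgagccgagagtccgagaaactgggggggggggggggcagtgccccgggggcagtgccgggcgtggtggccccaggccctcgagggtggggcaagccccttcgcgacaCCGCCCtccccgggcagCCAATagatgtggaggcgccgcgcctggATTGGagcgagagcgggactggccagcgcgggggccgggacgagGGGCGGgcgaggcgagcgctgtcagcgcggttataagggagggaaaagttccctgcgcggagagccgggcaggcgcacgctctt

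Both strands of these windows were searched for the letters TCACNCCAC (a sterol regulatory element), CCAAT (the box bound by NF-Y), GGGCGG (a GC box of the Sp1 type) and CACGTG (an E-box). The Fads2 window held 1 GC box, on the plus strand of the gene 186 bases before the RefSeq start and inside the gene span given above. In the Fads3 window there were 2 CCAAT boxes, at 106 bases before the start on the gene's own strand and at 78 bases before it on the opposite strand. That window also held 2 GC boxes, at 123 and 34 bases before the start, and no match overlapped another. Neither window held the sterol regulatory element or the E-box letters, which says only that these letters are not in these stretches. Of 32851 promoter windows of the same length, 1.24% held the sterol regulatory element letters, 37.4% a CCAAT box, 35.7% a GC box and 7.15% an E-box. The GC content was 67% for Fads2 and 73% for Fads3, against a median of 52.7% over all windows.

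Expression is given in FPKM, read fragments scaled to transcript length and library size, as deposited by the authors. Scd1 was the most abundant desaturase transcript by far in the vehicle livers. It stood at 6304, 3847 and 3590.35 FPKM in vehicle libraries 1, 2 and 4 and at 88.7, 119 and 61.6 FPKM in ONX-0914 libraries 1, 3 and 4. The lowest vehicle library was thus far above the highest treated one, and the groups did not overlap. The means were 4580.5 ± 1498 FPKM (SD, n = 3) with vehicle and 89.7 ± 28.6 (SD, n = 3) with ONX-0914, which is 51.1-fold lower. Ordered by level among all genes, Scd1 ranked 23, 37 and 40 in the vehicle libraries and 1096, 901 and 1403 in the treated ones. Fitted with limma on log2(FPKM + 1), the fold change was -5.66 (SE 0.30), the lowest of the 10743 genes tested.

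Scd2 was a rare transcript in these livers. It stood at 6.03, 3.84 and 5.77 FPKM in vehicle libraries 1, 2 and 4, at 0.12 and 0.43 FPKM in ONX-0914 1 and 3, and was listed at 0 in ONX-0914 4. The groups did not overlap, and all 3 treated libraries were below the value of 1 FPKM that the filter asked for, so Scd2 entered the fit through its vehicle libraries alone and had to differ. The mean was 5.21 ± 1.2 FPKM (SD, n = 3) with vehicle and 0.183 ± 0.222 (SD, n = 3) with ONX-0914. The log2 fold change was -2.39 (SE 0.25) with the pseudocount of 1 and -4.52 with a pseudocount of 0.1, because the treated values lie near 0. Its coding sequence is 89.6% identical to that of Scd1 (over the longer of the 2 sequences), and the longest run shared by their transcripts is 147 bases, about the length of a 150-base read. In the vehicle libraries Scd1 stood 622 to 1045 times above Scd2, and the part of misplaced Scd1 reads in the Scd2 values was not tested. Scd3, whose coding sequence is 90.4% identical to that of Scd1, stood at 0.06, 0.05 and 0.06 FPKM in vehicle libraries 1, 2 and 4. In ONX-0914 1 and 3 the ratio of Scd1 to Scd2 was 739 and 276.

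Fads2, which takes the entry step into the polyunsaturated series, was the second desaturase by level. Its values were 277, 268 and 226 FPKM in vehicle libraries 1, 2 and 4 and 32.1, 77.7 and 42.3 FPKM in ONX-0914 libraries 1, 3 and 4. The vehicle libraries were close to each other, the treated ones were all lower, and ONX-0914 3 was the highest of them. The means were 257 ± 27.4 and 50.7 ± 23.9 FPKM (SD, n = 3 each), a 5.07-fold lower level, with a log2 fold change of -2.41 (SE 0.30).

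Fads1, which acts on the elongated product of FADS2, followed the same order of libraries. It stood at 119.01, 118.87 and 92.3 FPKM in vehicle libraries 1, 2 and 4 and at 8.68, 31.5 and 13.6 FPKM in ONX-0914 libraries 1, 3 and 4. ONX-0914 3 was again the highest treated library, and no treated value reached a vehicle value. The means were 110.05 ± 15.4 and 17.9 ± 12 FPKM (SD, n = 3 each), 6.14-fold lower, and the log2 fold change was -2.73 (SE 0.39).

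Fads3 did not share this pattern. Its values were 6.36, 6.36 and 3.72 FPKM in vehicle libraries 1, 2 and 4 and 2.85, 4.91 and 2.75 FPKM in ONX-0914 libraries 1, 3 and 4. The groups overlapped, since ONX-0914 3 lay above vehicle 4. The means were 5.48 ± 1.52 and 3.50 ± 1.22 FPKM (SD, n = 3 each), with a log2 fold change of -0.53 (SE 0.30), whose sign turned to 0.11 after median ratio scaling, 0.30 after quantile normalisation and 0.32 after the trend with transcript length was removed. Fads3 was called lower only without ONX-0914 3, at -0.74, a setting in which 60.6% of all genes tested were called lower.

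**Figure D1:**
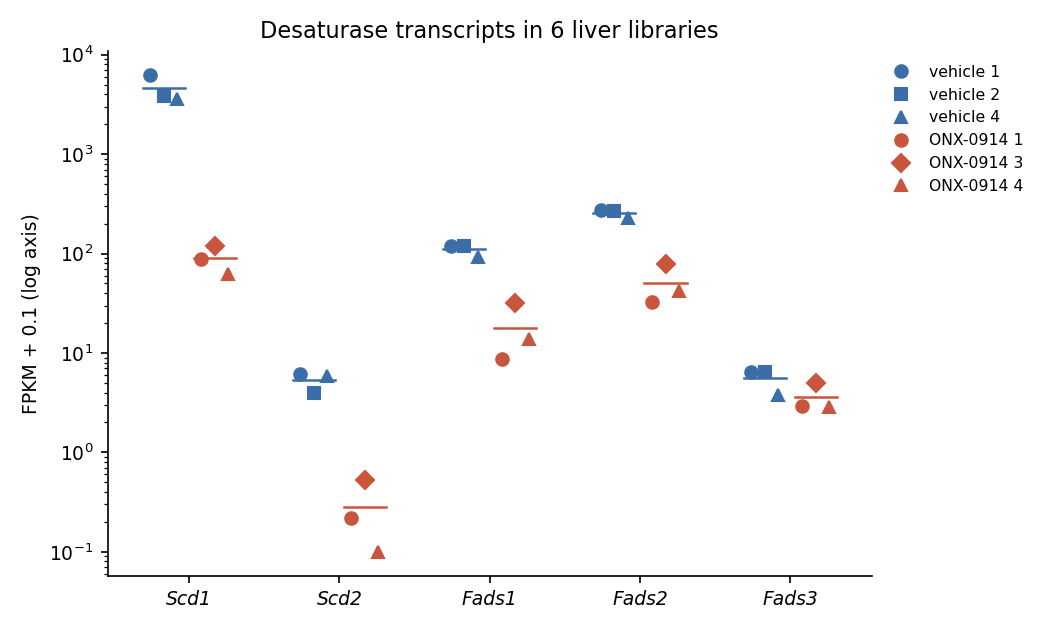
FPKM of the 5 desaturase genes in each of the 6 libraries, on a log axis after adding 0.1, with vehicle in blue, ONX-0914 in red and a line at each group mean. Scd1 lies between 3590.35 and 6304 FPKM with vehicle and between 61.6 and 119 with ONX-0914, while the Fads3 groups overlap; the lowest Scd2 point is a listed 0.

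Counted together, 4 of the 5 genes were called lower with ONX-0914 at a limma adjusted p under 0.05, and in the same 4 the groups did not overlap. Over all 10743 genes tested 43.5% were called lower, 2.56% were called higher, and 53.5% were lower with groups that did not overlap. The family was chosen on this contrast, so nothing is read from its count. The median gene had a log2 fold change of -0.64, a general shift towards lower values in the treated libraries. Median ratio scaling, in which a library is divided by its median ratio to the geometric mean of all libraries, brings that median to -0.01 and leaves 14.2% of genes called lower and 13.8% called higher, in place of 4673 lower and 275 higher genes. Leaving out 1 library also moved the count of lower genes, to 2590 without vehicle 1, 2840 without vehicle 2, 2966 without vehicle 4, 3197 without ONX-0914 1, 6514 without ONX-0914 3 and 3025 without ONX-0914 4.

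How far the values depend on the setting is given next as a description, since the family was chosen on this contrast. Scd1 had a log2 fold change between -5.99 and -4.75 over the 14 settings, the smallest in size after removal of the length trend. After median ratio scaling the values were -4.86 (SE 0.28) for Scd1, -2.02 (SE 0.23) for Scd2, -1.96 (SE 0.33) for Fads1 and -1.62 (SE 0.25) for Fads2. Quantile normalisation gave -5.67, -1.65, -2.24 and -2.13, and removal of the length trend gave -4.75, -1.46, -1.91 and -1.64 for the same genes. Without ONX-0914 3 the values were -5.89, -2.53, -3.21 and -2.76.

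**Figure D2:**
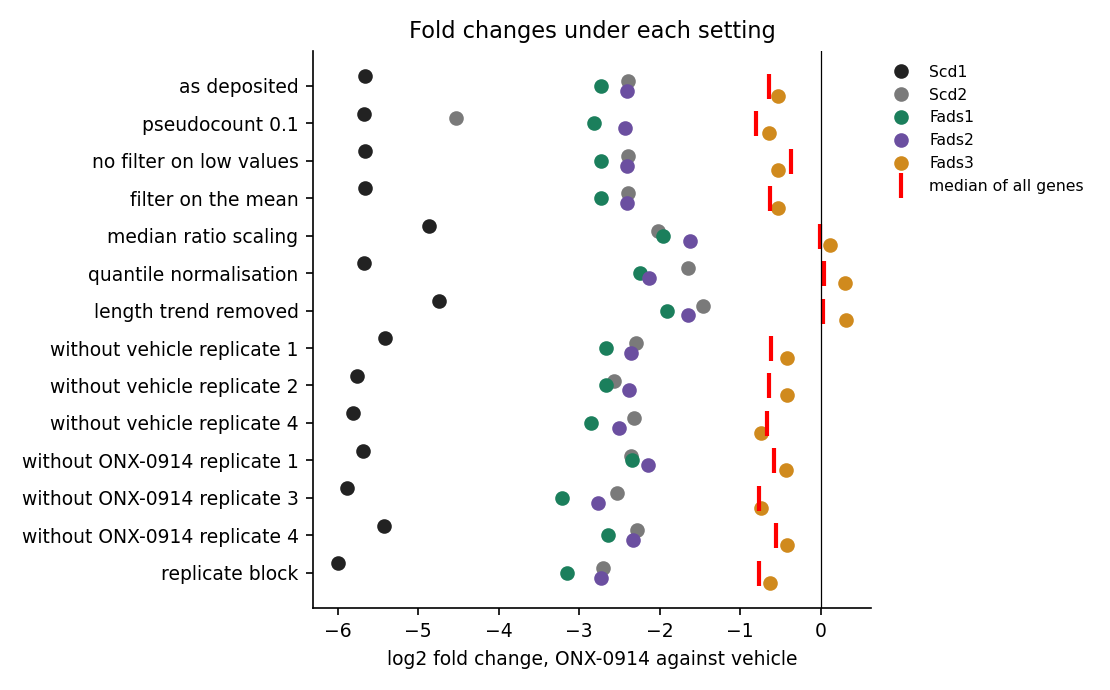
Log2 fold change of each desaturase gene (coloured points) under the deposited scale and 13 alternative settings, with the median of all genes tested as a red bar. Scd1 stays left of the others throughout, and Fads3 crosses 0 under median ratio scaling, quantile normalisation and removal of the length trend.

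Among the treated libraries, ONX-0914 3 was as near to the controls as to its own group. Across the genes tested, the correlation of its log2 values was 0.95, 0.96 and 0.95 with the vehicle libraries 1, 2 and 4 and 0.95 with both ONX-0914 1 and ONX-0914 4, while the latter reached 0.98 with each other. Longer transcripts were also lower than short ones in the treated libraries: the deviation from the vehicle mean in the top quartile of transcript length minus that in the bottom quartile was -0.93, -0.25 and -0.99 on the log2 scale in ONX-0914 1, 3 and 4, against -0.03 to 0.04 in the vehicle libraries. The longest coding transcripts of the family are 3150 bases (Fads2) to 5455 bases (Scd2), at the 55.2 to 86th percentile of the genes tested. The part of transcript length in the values was not tested beyond the setting that removes this trend. Depth relative to vehicle 1, read from the most common ratio of low values, was 1.29 and 1.13 for vehicle 2 and 4 and 1.02, 0.866 and 0.91 for ONX-0914 1, 3 and 4.

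Ratios of FPKM within a library do not depend on how libraries were scaled. Scd1 exceeded Fads2 by 22.8, 14.3 and 15.9 times in vehicle libraries 1, 2 and 4 and by 2.76, 1.53 and 1.46 times in ONX-0914 libraries 1, 3 and 4. All treated ratios were far below all vehicle ratios, so the difference between the groups was larger in Scd1 than in Fads2. Scd1 made up 93.9%, 90.6% and 91.6% of the summed FPKM of the 5 genes in the vehicle libraries and 67.0%, 50.9% and 51.2% in the treated ones. The ratio of Fads2 to Fads1 was 2.33, 2.26 and 2.45 in vehicle libraries 1, 2 and 4 and 3.70, 2.47 and 3.11 in ONX-0914 1, 3 and 4. That was a much smaller shift, and in ONX-0914 3 the ratio almost met the highest vehicle value. Fads2 stood 42.2 to 60.7 times above Fads3 in the vehicle libraries and 11.3 to 15.8 times in the treated ones, and Fads1 18.7 to 24.8 times against 3.05 to 6.41 times. The neighbours Fads2 and Fads3 thus differed between the groups to unlike degrees under any scaling of whole libraries.

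Scd1 was further set against genes of other steps, which were picked for their roles after their values had been seen. Its ratio to Fasn, which encodes fatty acid synthase, the source of palmitate, was 40.2, 43.6 and 68.6 in vehicle libraries 1, 2 and 4 and 5.06, 5.42 and 5.10 in ONX-0914 1, 3 and 4. The treated libraries were alike here, in contrast to their spread in the single genes. Its ratio to Elovl6, which encodes the elongase that makes stearate from palmitate, was 94.8 to 114 with vehicle and 17.8 to 51.3 with ONX-0914. Against Cyb5a, which encodes the cytochrome b5 that hands electrons to the desaturases, Scd1 went from 1.76 to 3.84 times its level with vehicle to 0.0304 to 0.0603 times with ONX-0914. In each of these ratios all treated libraries lay below all vehicle libraries.

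**Figure D3:**
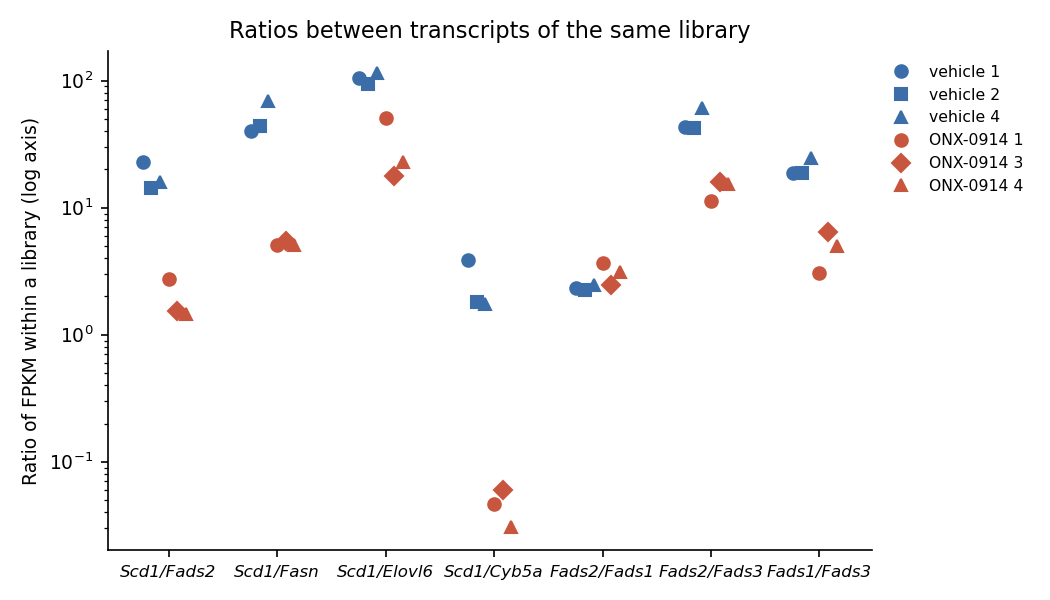
Ratios of FPKM between transcripts of the same library, on a log axis, with vehicle in blue and ONX-0914 in red. The ratios of Scd1 to Fads2, Fasn, Elovl6 and Cyb5a lie lower in all treated libraries than in all vehicle libraries, whereas the Fads2 to Fads1 ratio moved only from between 2.26 and 2.45 to between 2.47 and 3.70.

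The genes around the desaturases were taken from 8 lists, drawn up by role with earlier results of these data known. Of 106 listed genes 88 passed the filter on low values; 61 of them, or 69.3%, were called lower and 1 was called higher, beside the 43.5% and 2.56% given above for all genes. Their median log2 fold change was -1.06, and after median ratio scaling it was -0.41, with 33 called lower and 5 higher. After that scaling 14.2% of all genes were called lower and 13.8% higher. The counts of each list below are to be read beside these shares of all genes.

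Genes that supply palmitate, the substrate of elongation and desaturation, moved most as a list. All 9 tested were called lower, with a median log2 fold change of -2.57 against -0.64 for all genes, and 7 remained lower after median ratio scaling. Acss2, which makes acetyl-CoA from acetate, averaged 263 ± 141 FPKM with vehicle and 30.0 ± 10.9 with ONX-0914 (SD, n = 3 each; log2 fold change -3.03, SE 0.38, adjusted p in limma = 0.00149). Acaca, which encodes acetyl-CoA carboxylase, averaged 16.0 ± 6.82 and 1.35 ± 1.31 FPKM (SD, n = 3 each; -2.92, SE 0.42, adjusted p in limma = 0.00184). Thrsp, a lipogenesis-linked gene with high expression in liver, averaged 1657 ± 576 and 278 ± 90.1 FPKM (SD, n = 3 each; -2.57, SE 0.32, adjusted p in limma = 0.00149). Slc25a1, the mitochondrial citrate carrier, changed less, from 198 ± 20.6 to 115 ± 25.9 FPKM (SD, n = 3 each; -0.79, SE 0.22, adjusted p in limma = 0.0183), and was at 0.00 after median ratio scaling.

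In the elongation cycle 8 of 11 tested genes were called lower and none higher, with a median of -1.31. After median ratio scaling 5 were lower and 2 higher. Elovl5, which encodes the elongase that works between FADS2 and FADS1, had 334, 154 and 216 FPKM in vehicle libraries 1, 2 and 4 and 8.30, 40.9 and 13.5 FPKM in ONX-0914 libraries 1, 3 and 4 (log2 fold change -3.66, SE 0.50, adjusted p in limma = 0.00172). Its treated libraries kept the order seen in Fads1 and Fads2, with ONX-0914 3 the highest. That order is not particular to these genes: the hepatocyte marker Cps1 had it too, at 71.5, 286 and 133 FPKM in ONX-0914 1, 3 and 4. Over all genes tested ONX-0914 3 was also the treated library that correlated best with the vehicle libraries. Elovl6 averaged 43.9 ± 14.3 and 3.70 ± 2.63 FPKM (SD, n = 3 each; -3.35, SE 0.40, adjusted p in limma = 0.00135). Tecr, the enoyl-CoA reductase that ends the elongation cycle, had a log2 fold change of -0.82 (SE 0.21, adjusted p in limma = 0.0132) and of -0.02 after median ratio scaling. Elovl3, an elongase of very long saturated and monounsaturated chains, did not pass the test, with 222 ± 77.2 and 158 ± 65.2 FPKM (SD, n = 3 each; -0.52, SE 0.34, adjusted p in limma = 0.226).

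The electron supply genes were divided. Of 7 tested, 4 were called lower and none higher, with a median of -0.77. After median ratio scaling 2 were lower, with a median of -0.01, and 1 was after removal of the length trend. On the deposited scale 2 were called without vehicle 1, without vehicle 2 or without ONX-0914 1, beside 2590, 2840 and 3197 of all genes. Cyb5a, the most abundant of them, stood at 1641, 2132 and 2044 FPKM in vehicle libraries 1, 2 and 4 and at 1892, 1970 and 2026 FPKM in ONX-0914 libraries 1, 3 and 4. The groups overlapped, and its log2 fold change was 0.03 (SE 0.19, adjusted p in limma = 0.918) as deposited and 0.83 (adjusted p in limma = 0.0556) after median ratio scaling. After removal of the length trend it was -0.08 (adjusted p in limma = 0.792). Cyb5r3, which encodes the NADH-dependent reductase of cytochrome b5, averaged 337 ± 54.1 with vehicle and 74.3 ± 30.7 FPKM with ONX-0914 (SD, n = 3 each; -2.23, SE 0.29, adjusted p in limma = 0.00155). Cyb5b, the cytochrome b5 of the outer mitochondrial membrane, had a log2 fold change of -1.48 (SE 0.22, adjusted p in limma = 0.00211). The other lower genes, named after their values were seen, were Cyb5rl (-0.89) and Cyb5r4 (-0.77), relatives of the reductase.

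Among other desaturase and hydroxylase genes 4 of 5 tested were called lower and none higher, with a median of -1.60, and 2 were lower after median ratio scaling. Agmo, the ether lipid cleaving monooxygenase, had a log2 fold change of -2.66 (SE 0.37, adjusted p in limma = 0.0018). Fads6, a member of the fatty acid desaturase family by sequence, averaged 21.4 ± 1.4 and 6.09 ± 2.80 FPKM (SD, n = 3 each; -1.73, SE 0.30, adjusted p in limma = 0.00317). In the sterol pathway Sc5d had a log2 fold change of -1.60 (SE 0.24, adjusted p in limma = 0.00219), or -0.80 and not called after median ratio scaling, while Msmo1 did not pass the test (-1.27, SE 0.55, adjusted p in limma = 0.0819). Degs1, the ceramide-forming desaturase, was the other gene called lower, at -1.38, and is named after its value was seen. Scd3 and Scd4 did not pass the filter, with at most 0.06 and 0.15 FPKM in any library. The transcripts of Scd1 and Scd3 share a run of 185 bases, longer than a read. A single read from that run does not tell them apart, but reads were paired, and the use of mates is not given.

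Acyl-CoA synthetases and genes of the peroxisomal steps by which docosahexaenoate is completed were lower in 12 of 14 cases, with none higher and a median of -1.69, and 8 were lower after median ratio scaling. Acsl1, which activates long-chain fatty acids in hepatocytes, averaged 234 ± 12.4 and 26.5 ± 19.7 FPKM (SD, n = 3 each; -3.32, SE 0.40, adjusted p in limma = 0.00137). Abcd2, called lower and named after its values were seen, stood at 0.12, 0.21 and 0.03 FPKM in ONX-0914 libraries 1, 3 and 4. It passed the filter through its vehicle libraries alone and had to be lower. Abcd3, a peroxisomal transporter, had a log2 fold change of -3.01 (SE 0.39, adjusted p in limma = 0.0015). Scp2, whose product carries peroxisomal thiolase activity, had one of -0.99 (SE 0.30, adjusted p in limma = 0.0251), which became -0.19 and was no longer called after median ratio scaling.

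Acyltransferases, which place desaturated chains into glycerolipids and cholesterol esters, were lower in 7 of 12 cases with none higher, at a median of -0.98, and 5 were lower and 1 higher after median ratio scaling. Gpam, the mitochondrial acyltransferase that starts glycerolipid synthesis, averaged 59.5 ± 32.8 and 4.35 ± 1.26 FPKM (SD, n = 3 each; -3.40, SE 0.37, adjusted p in limma = 0.00117). Dgat2, which completes triglycerides with newly made fatty acids, averaged 290.1 ± 19.1 and 90.7 ± 52.6 FPKM (SD, n = 3 each; -1.83, SE 0.37, adjusted p in limma = 0.0055). Lclat1 had a log2 fold change of -1.91 (SE 0.34, adjusted p in limma = 0.00343). That of Agpat2 was -0.94 (SE 0.19, adjusted p in limma = 0.00581) as deposited, and -0.14 and no longer called after median ratio scaling.

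Of 12 tested genes for release and oxygenation of polyunsaturated fatty acids, 5 were called lower and 1 higher, beside 43.5% and 2.56% of all genes. The median was -0.57, which is close to that of all genes and turned to 0.15 after median ratio scaling, where 1 was lower and 2 higher. Without ONX-0914 4 the count of lower genes was 3, beside 3025 over all genes tested. The gene called higher, named after its value was seen, was Pla2g12a, which encodes a secreted phospholipase, at a log2 fold change of 0.85. Ephx2 and Ephx1, the soluble and the microsomal epoxide hydrolase, did not pass the test, at -0.28 (SE 0.18, adjusted p in limma = 0.223) and 0.18 (SE 0.25, adjusted p in limma = 0.574) on the log2 scale. Pnpla3, a lipase of lipid droplets, fell by 1.98 on the log2 scale (SE 0.51, adjusted p in limma = 0.0134), and Pnpla8 fell by 1.45 (SE 0.30, adjusted p in limma = 0.00628). Neither was called after median ratio scaling, at -1.46 and -0.68. The other lower genes, also named after their values were seen, were Ptgs1 (-1.42), which encodes a cyclooxygenase, Pnpla2 (-0.94), the main triglyceride lipase of lipid droplets, and Pla2g4a (-0.82), which encodes a phospholipase that frees arachidonate.

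**Figure D4:**
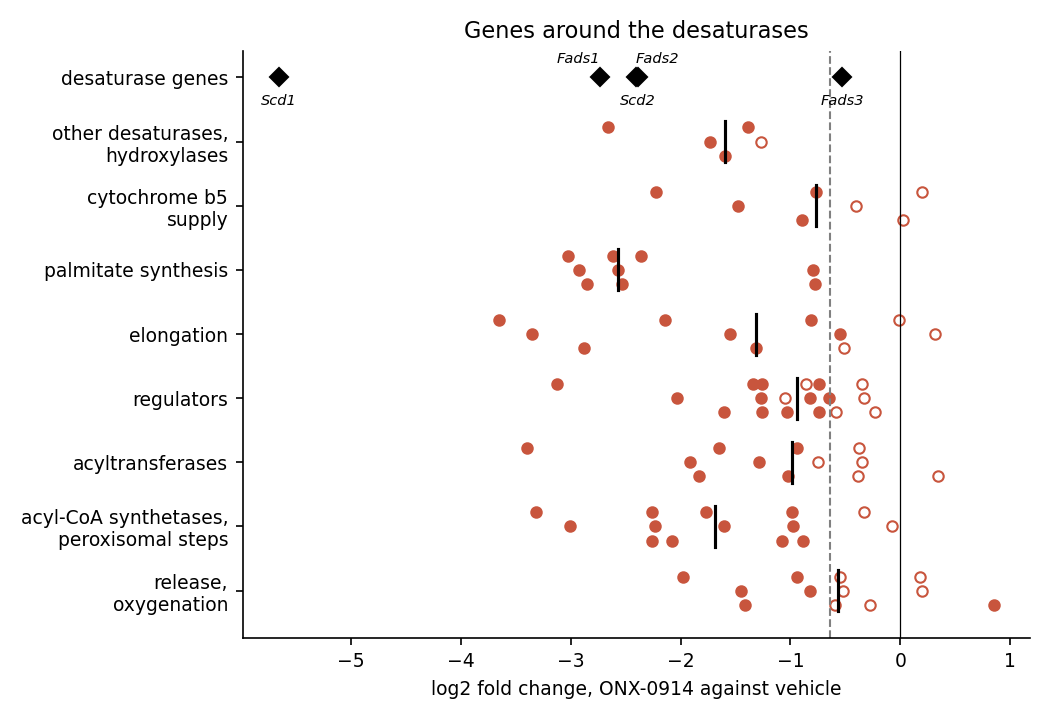
Log2 fold change of each tested gene of the 8 lists, filled where it was called and open where not, with a bar at each list's median and the desaturase genes as black diamonds on top. The dashed line is the median of all genes tested, -0.64; the palmitate synthesis list has its median at -2.57 and the release and oxygenation list at -0.57.

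Among textbook regulators of the desaturase genes 12 of 18 tested were called lower and none higher, with a median of -0.94. The count changed with the scale and with single libraries, as did that of all genes. After median ratio scaling 3 were lower, beside 14.2% of all genes. Without vehicle 1, vehicle 2 and ONX-0914 1 it was 5, 6 and 7. Over all 10743 genes these settings gave 2590, 2840 and 3197 lower, against 4673 with all libraries. Srebf1, which encodes SREBP-1, a protein the study's title names, stood at 72.6, 57.9 and 41.5 FPKM in vehicle libraries 1, 2 and 4 and at 28.8, 12.9 and 49.3 FPKM in ONX-0914 libraries 1, 3 and 4. The groups overlapped through ONX-0914 4, and Srebf1 did not pass the test (log2 fold change -1.05, SE 0.43, adjusted p in limma = 0.0686; -0.27 after median ratio scaling). The order of the treated libraries differed from that of Fads1 and Fads2, since ONX-0914 3 had the lowest Srebf1 and the highest Fads1 and Fads2. These are transcript levels, and the part of SREBP-1 in the desaturase values was not tested. Insig1, a gene that SREBP proteins induce and whose product holds them in the endoplasmic reticulum, averaged 145 ± 50 and 36.2 ± 16.5 FPKM (SD, n = 3 each; -2.03, SE 0.37, adjusted p in limma = 0.00382). Its relative Insig2 had a log2 fold change of -1.61 (SE 0.41, adjusted p in limma = 0.0136), which became -0.82 and was no longer called after median ratio scaling.

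Rxra, the partner receptor of LXR and PPAR-alpha, averaged 46.0 ± 4.34 with vehicle and 5.41 ± 4.89 FPKM with ONX-0914 (SD, n = 3 each; -3.13, SE 0.44, adjusted p in limma = 0.0018). Nr1h3, which encodes LXR-alpha, did not pass the test, with 105 ± 8.75 and 89.5 ± 11 FPKM (SD, n = 3 each; -0.23, SE 0.19, adjusted p in limma = 0.348), and its value was 0.57 after median ratio scaling. Psmb8, the transcript of the drug's target, had 55.6, 84.7 and 73.1 FPKM in vehicle libraries 1, 2 and 4 and 89.0, 62.7 and 79.1 FPKM in ONX-0914 libraries 1, 3 and 4, and the groups overlapped (0.12, SE 0.23, adjusted p in limma = 0.688; 0.91 with an adjusted p of 0.0574 after median ratio scaling). ONX-0914 acts on the protein, so this level is no check of the treatment. Hdac2, a histone deacetylase that the title names, had a log2 fold change of -0.33 (SE 0.22, adjusted p in limma = 0.225), which turned to 0.42 after median ratio scaling.

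Genes whose profile over the 6 libraries came nearest to each desaturase gene were found by Euclidean distance between gene-centred log2 values. This distance takes in the difference between the groups, by which the family was chosen, so nearness is a description and no sign of a link. The family itself was uneven by this measure: Fads1 and Fads2 were 0.534 apart, Scd2 was 0.829 from Fads2, and Scd1 was 3.76 or more from every other member. The place of Scd2 depends on the pseudocount of 1, since its treated values lie near 0. With a pseudocount of 0.1 its log2 fold change was -4.52 in place of -2.39, while that of Fads2 was -2.43 in place of -2.41. Distances at that pseudocount were not taken. Nearest to Fads2 were Rmnd5a, Mfn2 and Cyb5r3, at 0.181 to 0.277, with log2 fold changes of -2.37, -2.56 and -2.23. Nearest to Fads1 were Agmo, Rab5b and Dag1, at 0.288 to 0.313. Scd2 had Acot3, Sirpa and Mrc1 as its nearest genes, at 0.260 to 0.384. Scd1, whose log2 fold change was the lowest of all genes tested, had no close companion. Its nearest genes, Ppp1r3c, Aqp1 and Gpnmb, were 2.40 to 2.58 away, with log2 fold changes of -3.86, -3.89 and -3.73. Nearest to Fads3 were Clasrp, Atf7 and Eif2s3y, at 0.127 to 0.156.

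Tested genes within 250 kb of either cluster were compared as well, a choice made after their values had been seen. Beside 43.5% of all genes called lower, 3 of 9 other genes around the Scd cluster were called lower and none higher, with log2 fold changes from -1.53 to 0.46 and a median of -0.45. Around the Fads cluster 2 of 6 were called lower and 1 higher, with values from -1.18 to 1.09 and a median of -0.41. The lower genes were Chuk (-1.53), Erlin1 (-1.45) and Hif1an (-1.11) near the Scd genes and Myrf (-1.18) and Rab3il1 (-1.06) near the Fads genes. Tmem258, which lies beyond Fen1 on the Fads1 side and encodes a subunit of the oligosaccharyltransferase complex, stood at 142, 192 and 178 FPKM in vehicle libraries 1, 2 and 4 and at 452, 258 and 402 FPKM in ONX-0914 libraries 1, 3 and 4. All treated libraries were higher than all vehicle libraries (1.09, SE 0.25, adjusted p in limma = 0.00843). On the deposited scale the values of these neighbours were smaller in size than those of Scd1, Scd2, Fads1 and Fads2, but after median ratio scaling that of Tmem258 was 1.88, larger in size than the -1.62 of Fads2.

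**Figure D5:**
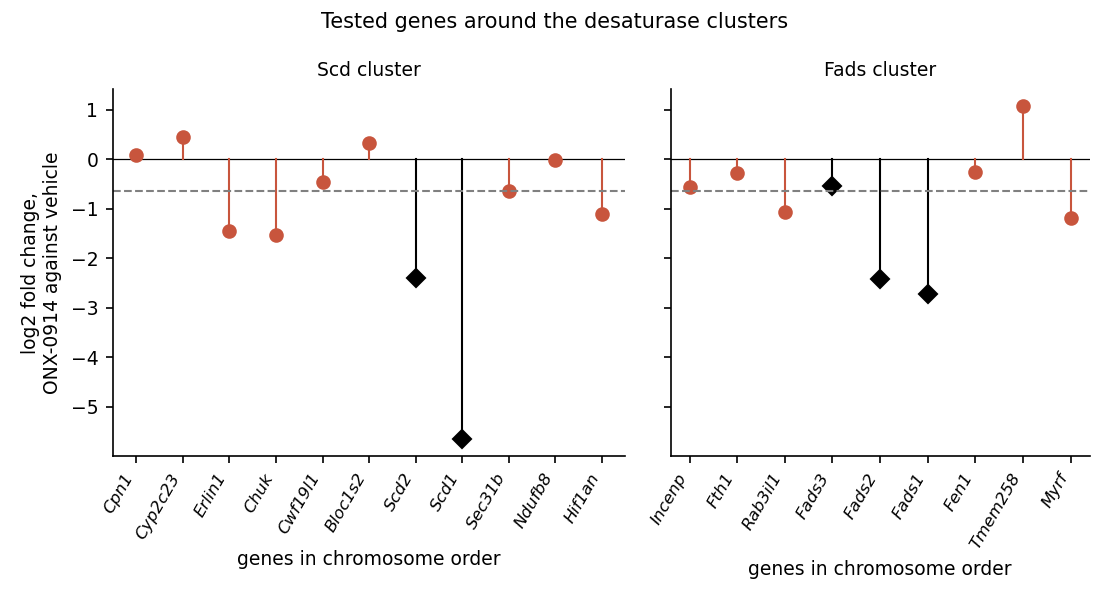
Log2 fold change of the tested genes within 250 kb of the Scd cluster (left) and the Fads cluster (right), in chromosome order, with desaturase genes as black diamonds and other genes as red points. The dashed line is the median of all genes tested; other genes range from -1.53 to 0.46 on the left and from -1.18 to 1.09 on the right.

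The samples are pieces of whole liver, in which fewer cells of a type and less RNA per cell cannot be told apart. Summed FPKM of 11 hepatocyte markers was 90111 to 94943 in the vehicle libraries and 68996 to 101480 in the treated ones, and 4 of the 11 were called lower and 2 higher as deposited, against 0 lower and 4 higher after median ratio scaling. Alb and Ttr made up most of this sum, and single markers, named after their values were seen, differed. Hnf4a stood at 51.7 to 68.6 FPKM with vehicle and 5.94 to 40.7 with ONX-0914, and Cps1 at 416 to 459 against 71.5 to 286. Fgb was higher, at 3315 to 3978 against 6179 to 10016, as was Apoa1, at 6366 to 9246 against 10639 to 12369. Endothelial markers summed to 226 to 234 FPKM with vehicle and 38.3 to 71.4 with ONX-0914. As deposited 14 of 14 were called lower, and 11 after median ratio scaling, beside 43.5% and 14.2% of all genes. Kdr, Tek and Ptprb, and the stellate cell marker Pdgfrb, stood below 1 FPKM in all treated libraries. These markers, named after their values were seen, passed the filter through the vehicle libraries alone and had to be lower. Markers of stellate cells and fibroblasts summed to 366 to 442 against 89.4 to 197 FPKM (9 of 13 lower, 5 after scaling), and those of Kupffer cells and macrophages to 1664 to 2459 against 810 to 1149 FPKM (11 of 14 lower, 5 after scaling). Neutrophil markers varied within both groups, from 311 to 1890 FPKM (vehicle 4) and from 188 (ONX-0914 3) to 4839 FPKM. None of 9 was called over the 6 libraries. Without ONX-0914 3, the library with the lowest sum, 5 were called higher and 1 lower. In that setting 740 of all 10743 genes were called higher and 6514 lower. Adipocyte markers summed to 3.45 to 10.0 FPKM in any library, with Lep, Plin1 and Retn at 0 in all 6. The part of endothelial, stellate and macrophage cells in the desaturase values was not tested.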

How the data were processed

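Liver RNA was sequenced in 6 libraries (3 vehicle, 3 ONX-0914) as paired reads of 150 bases, per the labels. Tools in the submitters' processing notes are HISAT2 2.0.1, featureCounts 1.6.0, edgeR, cutadapt 1.11 and FastQC 0.11.5, and the builds are mm10 and GRCm38, without roles. Strand, the annotation and the treatment of multiply placed reads are not given in the sources used here. Values are FPKM as deposited by the authors, with 2 decimals, a unit inferred from the values, and read totals are not known. Per library the values summed to between 993264 and 1247789.

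Genes above 1 FPKM in at least 3 libraries (10743 of 22851) were tested with limma 3.58.1 (variance trend, Benjamini-Hochberg) in R 4.3.3 on log2(FPKM + 1), a scale that understates changes of low genes, and called at an adjusted p under 0.05. The fit was tested on data simulated from the vehicle means and spreads, without the general shift, length trend and spread of the treated libraries. The members and lists were chosen with earlier results of these data known. Named are the 5 members, the title's genes, and per list the 2 highest genes and the 2 largest called changes without overlap, of which 1 is not reported here; further genes are marked as chosen after their values were seen. Alternatives were another pseudocount, no filter or a filter on the mean, median ratio scaling, quantile normalisation, removal of the trend with transcript length (GENCODE M21), each library left out, and a replicate block over libraries 1 and 4. Promoters come from RefSeq.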

Additional observations from a re-analysis of the deposited data

How the results depend on the processing

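Over 13 alternatives to the deposited scale, Scd1, Scd2, Fads1 and Fads2 stayed lower, which is no independent support, since they were chosen for this difference and Scd2 passed the filter through its vehicle libraries alone. Values moved by more than the spread between libraries for Scd1 after median ratio scaling (-4.86) and removal of the length trend (-4.75), for Fads1 (-1.96 and -1.91) and for Fads2 (-1.62 and -1.64). Scd2 moved to -4.52 with a pseudocount of 0.1, -2.02 with median ratio scaling, -1.65 with quantile normalisation, -1.46 with the length trend removed and -2.70 with the replicate block. Fads3 turned from -0.53 to 0.11, 0.30 and 0.32 under median ratio scaling, quantile normalisation and removal of the length trend; the cause was not tested. Under these 3 settings in that order, 1528, 1334 and 1228 genes were called lower and 1481, 1118 and 1044 higher, and of the pathway genes 33, 40 and 32 were called lower and 5, 4 and 2 higher. Leaving out each library in turn gave -5.89 to -5.41 for Scd1, -2.56 to -2.28 for Scd2, -3.21 to -2.34 for Fads1, -2.76 to -2.14 for Fads2 and -0.74 to -0.41 for Fads3. It gave 2590 to 6514 genes lower and 92 to 740 higher, and 0 to 2 pathway genes higher. The replicate block, over libraries 1 and 4 of each group, gave -5.99 for Scd1 and 610 genes higher. Same-numbered libraries correlated at 0.00113 (number 1) and 0.133 (number 4) in their deviations from the group means, and with 2 pairs it is not known whether the numbers pair the libraries. Depth is known only relative to vehicle 1, and the Scd2 values of the treated libraries lie at or near 0.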
